A study of Drosophila melanogaster with 5 samples.

Results

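The comparison made here is between the control libraries of a single-nucleus RNA-seq study of the adult Drosophila renal system, the Malpighian tubule (MT). The members are all nuclei of EGT > w1118 and of PCts > w1118, 3380 and 3015 nuclei of the 21371 in the series, and each of the 5 genotypes of the series has 1 library. Genes were compared within each annotated cell type for which both libraries had 20 or more nuclei. This left 11 of 17 cell types, with 3220 nuclei of EGT > w1118 and 3002 of PCts > w1118. EGT > w1118 flies carried esg-GAL4, tub-GAL80TS and UAS-GFP. The escargot (esg) driver acts in progenitor cells, which in the MT are the renal stem cells (RSCs). PCts > w1118 flies carried CG31272-GAL4 and tub-GAL80TS, a driver for the principal cells (PCs), with no UAS transgene. The temperature-sensitive GAL80 repressor, the outcross to w1118 and the female sex of the flies are shared by both genotypes. All flies were grown at 18 °C and then moved to 29 °C for 8 days by the protocol, while the sample descriptions give 5 days. Each library pooled the nuclei of 90 MT pairs, flash-frozen and then sorted on a DNA dye. With 1 library a side, driver, transgene, genetic background, preparation and sequencing run cannot be told apart, and no test or p-value is given.

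The MT is a blind-ended epithelial tube. PCs pump cations into the lumen with a vacuolar H+-ATPase, hold the enzymes and transporters of uric acid and xenobiotic handling, and differ by segment along the tube. Stellate cells (SCs) pass chloride and water and respond to leucokinin, a diuretic peptide. RSCs lie in the lower tubule and ureter and are largely quiescent in the normal adult.

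The unique molecular identifier (UMI) counts of each nucleus were recovered from the deposited values, and the level of a gene is given as its mean UMIs per 10,000 UMIs over the nuclei of a cell type. A log2 fold change is the log2 ratio of these means, EGT > w1118 over PCts > w1118, after adding 1 to each. It understates the difference of low genes. A gene was compared in a cell type when a UMI of it was seen in 10% or more of the nuclei of one of the libraries, and was counted as different when it lay past 2-fold. The libraries held 15741100 UMIs in EGT > w1118 and 14781993 in PCts > w1118, and the median nucleus 1515.5 and 2582 UMIs, and 2 cell barcodes occurred in both. Intervals are exact 95% intervals of the counts. They cover counting error only, and not the variation between flies or preparations. Fewer molecules of a gene in a nucleus and a smaller share of the nucleus's RNA cannot be told apart.

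Cell type identity was shared by the libraries for most types. The authors clustered all 5 libraries together after aligning them with Harmony, so marker levels describe the clusters and test nothing. Across the 6512 genes compared in any type, the profile of EGT > w1118 was closest to the same type in PCts > w1118 for 9 of 11 types, and in the other direction for 8 of 11. Pearson's r of the log2 levels with the same type was 0.98 for initial and transitional PCs, 0.98 for lower tubule PCs, 0.97 for main segment PCs, 0.96 for RSCs and 0.96 for SCs. These genes share libraries and depth and are not independent replicates. The exceptions were PC-like nuclei, visceral muscle and main segment PCs 2. In PCts > w1118, 89 PC-like nuclei had r of 0.90 with RSCs and 0.80 with their own type. The 21 visceral muscle nuclei of PCts > w1118 had 0.79 and 0.78. Tracheal cells and lower ureter PCs of that library, 61 and 39 nuclei, were closest to their own type. PC-like nuclei of EGT > w1118, 32 nuclei, had r of 0.83 with RSCs and 0.80 with their own type, and the 39 visceral muscle nuclei of EGT > w1118 had 0.83 with RSCs and 0.78 with their own type. Main segment PCs 2 of PCts > w1118, 30 nuclei, had r of 0.95 with main segment PCs and 0.90 with main segment PCs 2 of EGT > w1118.

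Genes that marked a single type in one library mostly marked the same type in the other. A gene was called type-enriched when its level in its top type, with 1 added, was at least 2-fold above that in the next type. Of 400 type-enriched genes in EGT > w1118, 307 (76.8%) had the same top type in PCts > w1118, and of 284 in PCts > w1118, 240 (84.5%) had the same top type in EGT > w1118. For the 177 genes enriched in both libraries the top type was shared by 175 (98.9%). SCs had 56 such genes in EGT > w1118, 54 of them with the same top type in PCts > w1118, and 53 in PCts > w1118, 51 of them with the same top type in EGT > w1118. Initial and transitional PCs had 33, all 33 with the same top type, and 43, of which 39. Tracheal cells had 69, of which 61, and 49, of which 46. Lower ureter PCs had 70, of which 66, and 67, of which 60, and visceral muscle 65, of which 50, and 64, of which 39. Main segment PCs 2 had 64, of which 31 had the same top type, and 2, of which 1, and PC-like nuclei had 35, of which 6, and 2, of which 0. Some types with many nuclei had few type-enriched genes. RSCs had 3 in EGT > w1118 and 2 in PCts > w1118, main segment PCs 4 and 0, lower tubule PCs 1 and 2, and upper ureter PCs 0 and 0. Of the 175 genes above, 1 was of RSCs and 0 were of these 3 PC types.

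SC markers had similar levels in the libraries. SecCl, a ligand-gated chloride channel, averaged 131 UMIs per 10,000 in SCs of EGT > w1118 and 131 in SCs of PCts > w1118. ClC-a, a second chloride channel, was at 18.0 and 17.4, and Lkr, the leucokinin receptor, at 23.36 and 25.95. Levels of tsh, a zinc finger transcription factor of the SC lineage, were 44.4 and 54.9, and those of the homeobox gene Lim3 14.9 and 16.5. The next cell type held 0.84 of tsh in EGT > w1118 and 1.26 in PCts > w1118. The octopamine receptor gene Octalpha2R stood at 98.6 and 89.1, the aquaporin genes Drip at 20.8 and 14.9 and Prip at 8.32 and 9.17, and the PDGF/VEGF-related ligand Pvf1 at 20.1 and 17.5. None of these lay past 2-fold between the libraries. The 2 other listed SC markers were low in SCs. The tyramine receptor gene TyrR was at 0.575 and 1.19 there and highest in lower tubule PCs of both libraries, at 4.49 and 2.78, and tio, a paralogue of tsh, was at 0.377 and 0.273.

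Several segment genes of PCs also had similar levels. In initial and transitional PCs the homeobox gene hth averaged 380 in EGT > w1118 and 375 in PCts > w1118. The plasma membrane calcium pump gene PMCA was at 231 and 247, Scp2, a calcium-binding protein gene, at 83.4 and 93.0, and CAH1, a carbonic anhydrase gene, at 61.4 and 64.8. The PC transcription factor gene ct was highest in the same cells, at 87.1 and 116. Slc45-1, a sugar transporter gene, was at 8.05 and 11.5 in main segment PCs, List, a transporter gene, at 4.32 and 8.57 there, and Prestin, an anion transporter gene, was highest in lower tubule PCs of both libraries, at 3.15 and 2.36. Of the 13 PC markers listed, 8 had different top types in the libraries. Uro, the urate oxidase gene, averaged 16.5 in main segment PCs of EGT > w1118 and 12.3 in those of PCts > w1118, yet was also at 9.86 and 26.04 in visceral muscle, which should lack it. It was at 19.1 in RSCs of PCts > w1118, above the main segment PCs of that library, and at 18.1 in PC-like nuclei of EGT > w1118. The others were NaPi-T, Alp4, Vha55, Pvr, CG31272, Eglp2 and Eglp4. RSCs, the largest cluster, were the top type of NaPi-T and Alp4 in EGT > w1118 and of Vha55 and Eglp4 in PCts > w1118. The part of free RNA in these levels was not tested.

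RSCs rested on few markers. Of the markers listed for them, N, the Notch receptor gene, and Sox21a, a transcription factor gene of intestinal and renal progenitors, were matched by identifier, and esg was not. N was highest in RSCs of both libraries, at 1.46 in EGT > w1118 (141 UMIs) and 3.80 in PCts > w1118 (217 UMIs), a log2 fold change of -0.96. Sox21a was at 0.244 (27 UMIs) and 0.761 (50 UMIs), and was seen in too few nuclei to be compared. Dop1R2, a dopamine receptor gene, was the only gene enriched in RSCs in both libraries, at 2.50 and 1.98. Alp4, listed for lower tubule PCs, averaged 47.1 and 51.96 in RSCs, against 26.6 and 34.8 in lower tubule PCs.

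Nuclei from outside the MT kept their markers. All 5 tracheal markers in the files (btl, trh, vvl, verm and serp) and all 7 muscle markers (Mhc, sls, bt, Mlc2, up, Mf and Prm) had the same top type in both libraries. In tracheal nuclei the Hox gene Antp was at 44.3 in EGT > w1118 and 37.4 in PCts > w1118. Mhc, the muscle myosin heavy chain gene, was at 27.7 and 13.4 in visceral muscle, and Mlc2, a myosin light chain gene, at 76.8 and 26.7, from 39 and 21 nuclei. The hemocyte genes He and eater, 2 of 7 on that list, were at 0 in every cell type compared in both libraries. So were Fbp1 and Lsp2, 2 of the 8 fat body markers in the files, while the other 6 were seen at low levels, such as the yolk protein gene Yp1 at 1.04 and 0.222 in RSCs. Some listed gut genes were highest in lower ureter PCs of both libraries. The enterocyte markers alphaTry, nub and Jon65Aiv were at 4.67 and 2.60, 3.59 and 4.58, and 0.0656 and 0.616. The enteroendocrine marker AstA was at 0.0954 and 4.47. The other gut markers listed did not exceed 0.162 in any type. Whether that cluster holds gut nuclei was not tested.

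**Figure D1:**
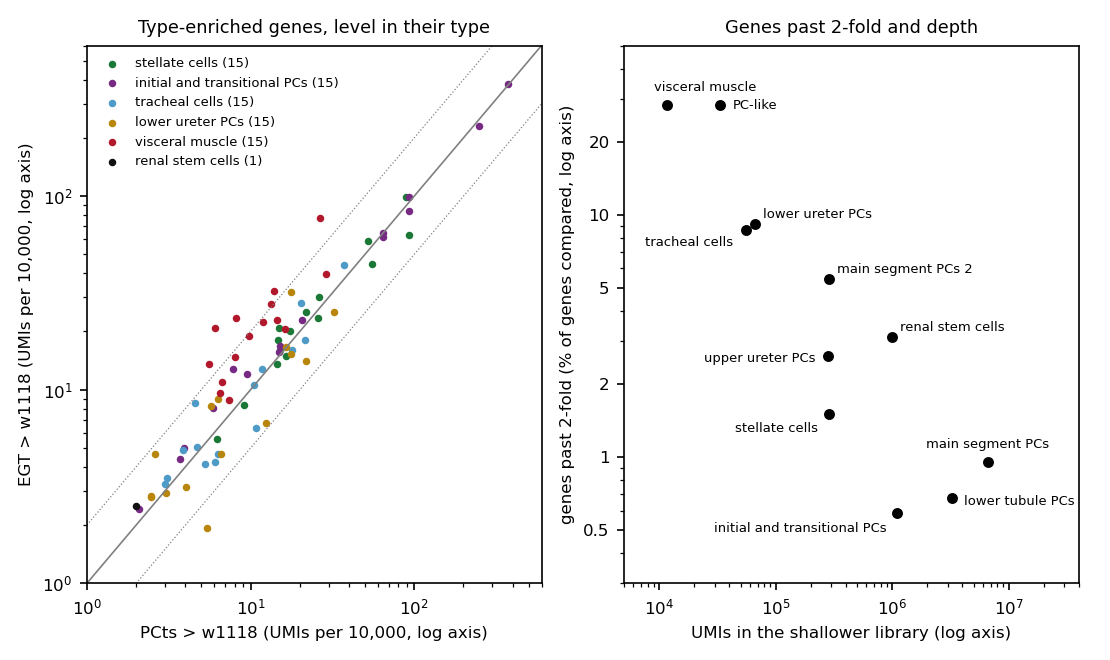
Left, levels of up to 15 genes per cell type that were type-enriched in both libraries, in their own type, with EGT > w1118 on the y axis and PCts > w1118 on the x axis (UMIs per 10,000, log axes; solid line, equal levels; dotted lines, 2-fold). Right, the percent of compared genes past 2-fold against the UMIs of the shallower library for the 11 cell types (log axes): it was 28.3% in visceral muscle and 28.4% in PC-like nuclei, and under 1% in main segment PCs, lower tubule PCs and initial and transitional PCs.

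The libraries differed in the makeup of their nuclei. RSCs made up 47.1% of EGT > w1118 nuclei (exact binomial interval 45.4 to 48.8%) and 36.3% of PCts > w1118 nuclei (34.53 to 37.997%). Main segment PCs went the other way, with 16.1% (14.9 to 17.4%) in EGT > w1118 and 24.8% (23.2 to 26.4%) in PCts > w1118. Upper ureter PCs were 2.78% and 7.36%, initial and transitional PCs 5.21% and 7.33%, SCs 4.11% and 6.003%, and PC-like nuclei 0.947% and 2.95%. Lower tubule PCs were 12.6% and 9.88% and lower ureter PCs 2.19% and 1.29%. Tracheal cells, visceral muscle and fat body together were 3.67% and 3.02%. RSC nuclei were shallow, with a median of 548 and 511 UMIs. When the 25% of each library's nuclei that had the fewest genes were set aside, RSCs were 35.5% of EGT > w1118 and 21.1% of PCts > w1118. These are shares of sorted nuclei of 1 preparation each. For EGT > w1118 the paper reports fewer nuclei and a smaller RSC share than found here, and the reason was not tested.

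**Figure D2:**
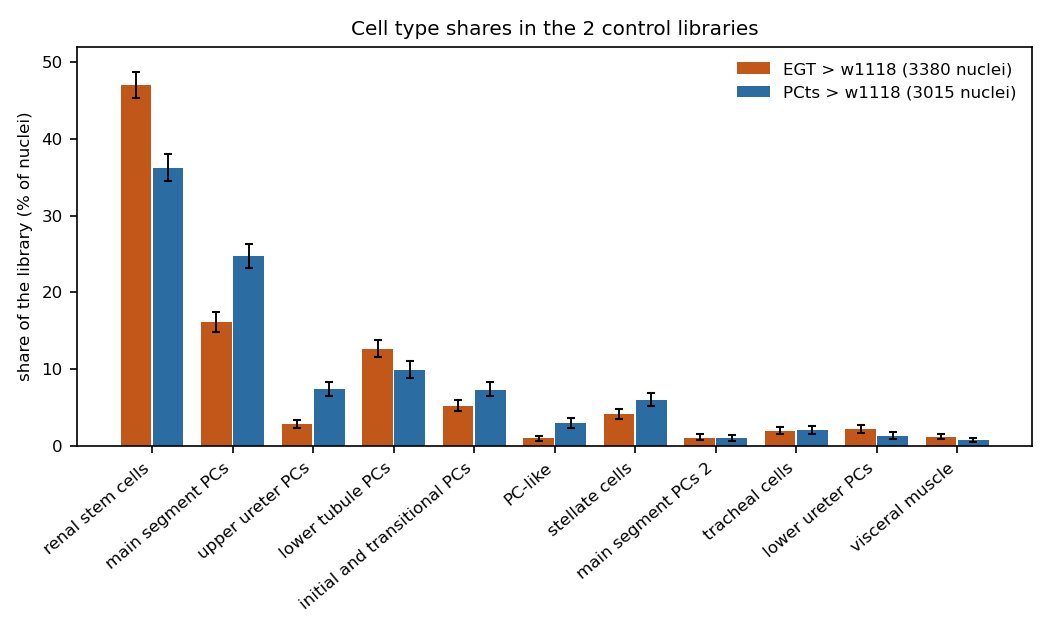
Share of each library's nuclei in the 11 cell types compared (percent of 3380 nuclei of EGT > w1118, left bars, and of 3015 nuclei of PCts > w1118, right bars). Error bars are exact binomial 95% intervals, which cover counting error only. RSCs were 47.1% and 36.3%, and main segment PCs 16.1% and 24.8%.

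Few genes differed in 6 of the 11 types. In main segment PCs, with 6616161 UMIs in EGT > w1118 and 7353430 in PCts > w1118, 49 of 5158 genes (0.95%) lay past 2-fold, 22 higher (0.427%) and 27 lower (0.523%) in EGT > w1118. In lower tubule PCs there were 37 of 5501 (0.673%), 15 higher (0.273%) and 22 lower (0.4%), and in initial and transitional PCs 23 of 3929 (0.585%), 11 higher (0.28%) and 12 lower (0.305%). SCs had 37 of 2455 (1.51%), 14 higher (0.57%) and 23 lower (0.937%). In RSCs it was 44 of 1414 (3.11%), 14 higher (0.99%) and 30 lower (2.12%), and in upper ureter PCs 102 of 3895 (2.62%), 43 higher (1.1%) and 59 lower (1.51%). The median absolute log2 fold change was 0.07 in main segment PCs, 0.08 in lower tubule PCs, 0.11 in initial and transitional PCs and 0.24 in RSCs.

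The share of genes past 2-fold was higher in the 5 other types, 4 of which had the fewest UMIs. Main segment PCs 2 (36 and 30 nuclei) had 306 of 5664 genes past 2-fold (5.4%), 148 higher (2.61%) and 158 lower (2.79%). Tracheal cells (67 and 61 nuclei) had 152 of 1752 (8.68%), 61 higher (3.48%) and 91 lower (5.19%). In lower ureter PCs (74 and 39 nuclei) there were 264 of 2890 (9.13%), 81 higher (2.8%) and 183 lower (6.33%). PC-like nuclei (32 and 89) had 448 of 1577 (28.4%), 186 higher (11.8%) and 262 lower (16.6%), and visceral muscle (39 and 21) 622 of 2198 (28.3%), 382 higher (17.4%) and 240 lower (10.9%). When the UMIs of a type were pooled instead of averaged over nuclei, all 49 genes of main segment PCs were again past 2-fold in the same direction, as were 36 of 37 in lower tubule PCs. In upper ureter PCs this held for 37 of 102 and in tracheal cells for 70 of 152. The number also rests on the added 1: with 0.1 in its place, main segment PCs had 199 genes past 2-fold and SCs 234.

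Most genes past 2-fold were so in a single type. Of 1409 genes past 2-fold in any type, 991 were so in 1 type only, and 134 were past it in opposite directions in different types. Over genes and types there were 2084 differences, most of them in types of few nuclei. Visceral muscle had 622, PC-like nuclei 448, lower ureter PCs 264 and tracheal cells 152, and 306 were in main segment PCs 2. Many genes could not be compared in every type, so 1 type only does not mean a difference particular to it. The 1026 genes that could be compared in every type included 450 that stayed within 2-fold in all 11. Only 19 genes lay past 2-fold in the same direction in at least 6 types, 6 higher in EGT > w1118 (MtnA, Hsp26, Hsp27, Ypel, Alp8 and CG16762) and 13 lower (CG42807, lncRNA:CR32368, CG13323, CG45060, Ctr1B, Nazo, Cyp6a23, CG34194, lectin-37Da, Mur29B, Myo81F, lncRNA:CR34335 and CG30197). Cell types of 1 library share its preparation, so that the types are not replicates.

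**Figure D3:**
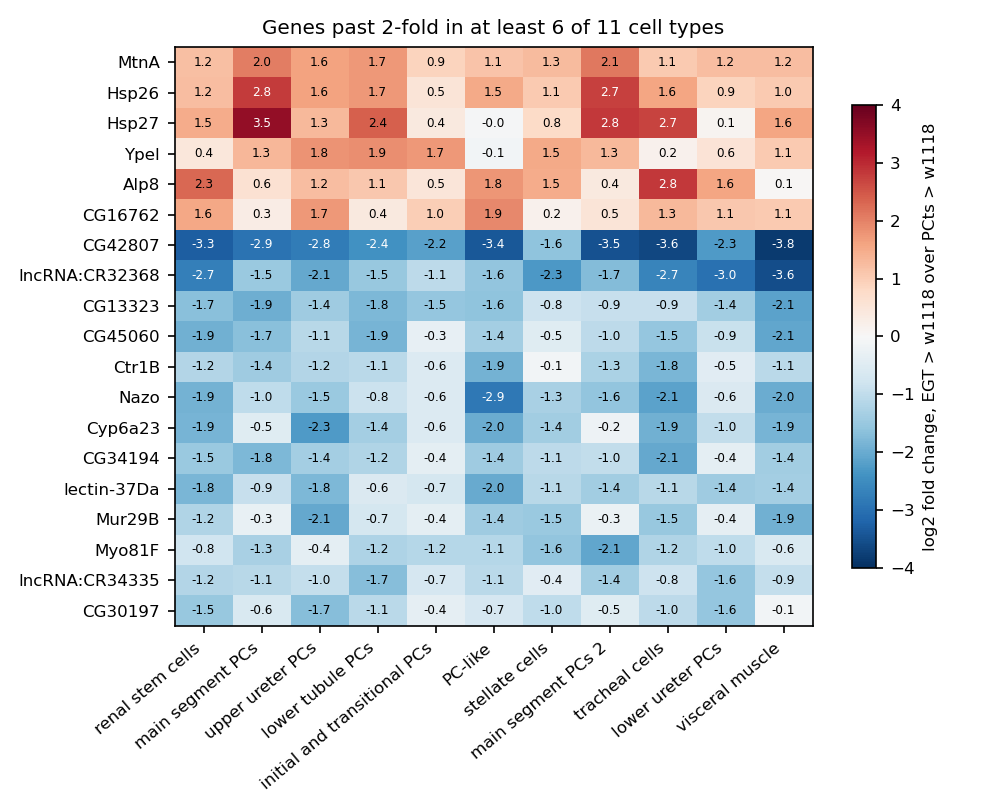
Log2 fold change, EGT > w1118 over PCts > w1118 with 1 added to each mean, of the 19 genes that lay past 2-fold in the same direction in at least 6 of 11 cell types (rows, genes; columns, cell types; red, higher in EGT > w1118; blue, lower). CG42807 and lncRNA:CR32368 are past 2-fold in all 11 types.

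CG42807, a protein-coding gene with no known role to give here, was lower in EGT > w1118 in all 11 types. It averaged 3.05 UMIs per 10,000 in RSCs of EGT > w1118 and 39.0 in RSCs of PCts > w1118, 0.231 and 8.44 in main segment PCs, and 33.4 and 104 in SCs. Over the 11 types its log2 fold change lay between -3.82 and -1.61. Counts behind the main segment PC value were 137 UMIs in EGT > w1118 and 6151 in PCts > w1118. SCs held the highest level of it in both libraries, while the order of the other types was not kept. The long non-coding RNA lncRNA:CR32368 followed it, at 0.312 and 7.73 in RSCs and 0.0761 and 2.04 in main segment PCs, with log2 fold changes between -3.55 and -1.05.

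Several heat shock protein genes were higher in EGT > w1118. These are chaperones whose genes respond to heat and other protein stress, and both libraries came from flies held at 29 °C. For Hsp27, a small heat shock protein gene, main segment PCs had a mean of 20.6 UMIs per 10,000 in EGT > w1118 (12824 UMIs) and 0.904 in PCts > w1118 (702 UMIs), a log2 fold change of 3.50. A UMI of it was seen in 62.7% of these nuclei in EGT > w1118 and 17.8% in PCts > w1118. Hsp26, its neighbour in the genome, was at 9.73 and 0.531 (2.81), Hsp83, the Hsp90 gene, at 31.5 and 8.71 (1.74), the co-chaperone gene DnaJ-1 at 4.83 and 1.30 (1.34), and Hsp23 at 1.43 and 0.0899 (1.15). Of 19 listed genes in the files, 13 could be compared in main segment PCs. Past 2-fold and higher were 5 of the 13, beside 0.427% of all genes, and none was past it and lower. The 13 had a median log2 fold change of 0.87, beside 0.01 over all genes compared there. The co-chaperone gene stv, at 8.11 and 3.80, stayed within 2-fold. In main segment PCs 2 the list had 7 of 12 genes past 2-fold and higher, beside 2.61% of all genes, and a median of 1.21. Hsp27 was there at 10.3 and 0.579 and Hsp26 at 8.16 and 0.367.

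On the log2 scale with 1 added, the Hsp27 difference was smaller in the types outside the main segment. By pooled UMIs the log2 ratio of Hsp27 was 5.08 in lower tubule PCs (interval 4.73 to 5.45) and 4.34 in main segment PCs (4.23 to 4.46). Hsp27 was at 5.56 and 0.246 in lower tubule PCs, at 2.05 and 0.101 in RSCs, at 7.96 and 4.23 in SCs, and at 0.679 and 0.274 in initial and transitional PCs. In tracheal nuclei it had 48 UMIs in EGT > w1118 and 0 in PCts > w1118, at least 11.3-fold higher against a floor of 3 UMIs in that library's type. The median over the list was 0.63 in lower tubule PCs (11 genes, 4 past 2-fold and higher), 0.47 in RSCs (6 genes, 2 higher), 0.51 in SCs (10 genes, 1 higher) and 0.07 in initial and transitional PCs (9 genes, 0 past 2-fold). Over all genes compared, the shares past 2-fold and higher in these types were 0.273%, 0.99%, 0.57% and 0.28%. In lower ureter PCs 1 of 8 genes was past 2-fold and lower, beside 6.33% of all genes. Summed over the list, the level was 96.5 and 26.1 in main segment PCs, 113 and 35.8 in main segment PCs 2, and 30.9 and 28.6 in initial and transitional PCs.

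**Figure D4:**
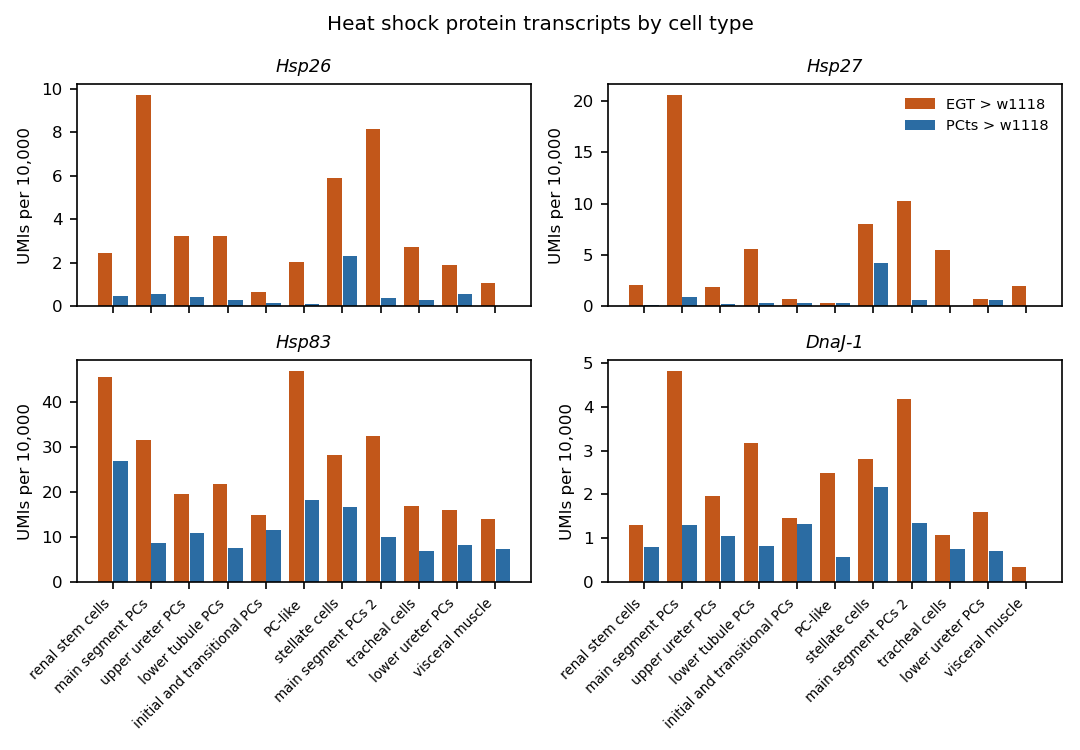
Mean UMIs per 10,000 of Hsp26, Hsp27, Hsp83 and DnaJ-1 in the 11 cell types (left bars, EGT > w1118; right bars, PCts > w1118). In main segment PCs Hsp27 is at 20.6 and 0.904 and Hsp83 at 31.5 and 8.71; in initial and transitional PCs Hsp83 is at 14.9 and 11.6. No error bars are drawn, as each genotype has 1 library.

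A pair of copper-response genes differed in opposite directions. MtnA, a metallothionein gene that is induced by copper and other metals, was past 2-fold and higher in EGT > w1118 in 10 of 11 types. Its level was 17.9 and 3.60 in main segment PCs, 40.6 and 17.2 in RSCs, 18.7 and 7.25 in SCs and 56.2 and 23.3 in visceral muscle. Initial and transitional PCs, at 22.2 and 11.5, were just inside 2-fold with a log2 fold change of 0.90. Ctr1B, a copper importer gene that is induced when copper is scarce, was lower in 8 of 11 types. It was at 0.690 (473 UMIs) and 3.51 (2663 UMIs) in main segment PCs and at 0.972 and 3.41 in RSCs. The other metallothionein genes listed had few UMIs, and no more in EGT > w1118 than in PCts > w1118. Over all nuclei these were 1 and 3 for MtnB, 27 and 48 for MtnC, 12 and 14 for MtnD and 31 and 35 for MtnE. Of the 5 copper and metal response genes that could be compared in main segment PCs, the 3 besides MtnA and Ctr1B stayed within 2-fold. This list was drawn up after the values had been seen, as were the lists of Sting-regulated and mitochondrial genes below.

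Some antiviral and antimicrobial genes were lower in EGT > w1118 and others higher. Nazo and Srg3 are induced through Sting, a sensor adaptor of the antiviral response. Nazo was at 0.195 and 3.44 in RSCs (35 and 340 UMIs) and at 0.116 and 1.26 in main segment PCs (67 and 945 UMIs). Srg3 was all but missing from EGT > w1118, with 8 UMIs in main segment PCs against 1006 in PCts > w1118, and 6 against 140 in RSCs. Of the 7 Sting-regulated genes listed, 3 could be compared in main segment PCs, and 2 of these were past 2-fold and lower, beside 0.523% of all genes there. Another of the 7, vir-1, went the other way, with 242 and 155 UMIs over all nuclei. Srg2 had 0 UMIs in lower ureter PCs of EGT > w1118 and 20 in those of PCts > w1118, at least 12.1-fold lower. Sting itself, at 0.163 and 0.510 in main segment PCs, was within 2-fold on the scale used. Mtk, which encodes the antimicrobial peptide Metchnikowin, had 4 UMIs in RSCs of EGT > w1118 and 241 in RSCs of PCts > w1118, a log2 fold change of -1.58. In lower tubule PCs it had 0 and 199 UMIs, at least 95.1-fold lower. Of the 21 immune effector and recognition genes listed, 13 had no UMI in RSCs of EGT > w1118 and 14 none in RSCs of PCts > w1118, so that most could not be compared. LysX, a lysozyme gene, had 0 and 346 UMIs in upper ureter PCs, at least 30.8-fold lower. Outside these lists, PGRP-SA, a peptidoglycan recognition gene, had 871 and 469 UMIs over all nuclei and NimC4, a phagocytosis receptor gene, 37 and 0. Infection of either stock was not tested.

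Several of these genes sit close together on the chromosomes of the BDGP6 assembly. These are picked examples, and their nearness was not set against that of all genes compared. Neighbours did not all go the same way: Hsp26 and Hsp27 were higher in EGT > w1118 and Srg3 lower. Hsp26 lies at chr3L:9376418-9377427, Hsp27 at chr3L:9384063-9385694 and Srg3 at chr3L:9443232-9446388. Nazo is at chr3R:8287876-8288613 and Ctr1B at chr3R:8317612-8319205. Culd (chr3L:8352355-8356296) and Idh (chr3L:8356404-8360906), both past 2-fold and higher in EGT > w1118 in 5 types, are next to each other. Culd, a transmembrane protein gene, was at 2.47 and 0.0422 in lower tubule PCs (1126 and 14 UMIs), and Idh, an isocitrate dehydrogenase gene, at 5.55 and 1.32 in initial and transitional PCs. Myo81F and Pzl, both past 2-fold and lower in at least 5 types, lie close together near the centromere of 3R. Myo81F, a myosin gene, was at 6.33 and 17.1 in main segment PCs, and Pzl, the piezo-like channel gene, at 0.868 and 5.11 in SCs.

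The driver and transgene features were low. Over all nuclei, EGFP had 18 UMIs in EGT > w1118 and 0 in PCts > w1118, at least 5.63-fold higher. Of the 18, 9 were in RSCs, 4 in main segment PCs and 3 in tracheal cells. RSCs were 47.1% of the nuclei of EGT > w1118 and held 1762484 of its 15741100 UMIs. The gal4 feature had 11 UMIs in EGT > w1118, 6 of them in RSCs, and 1 in PCts > w1118, although both genotypes carry a GAL4 driver. CG31272, the gene that the PCts driver is named for, was at 12.4 and 10.0 in main segment PCs and 20.6 and 18.4 in lower tubule PCs. The w gene, an ABC transporter of eye pigment precursors, was at 10.98 and 2.03 in main segment PCs, at 5.06 and 1.10 in lower tubule PCs and at 5.10 and 1.64 in initial and transitional PCs. Gene counts do not separate the w locus from w marker genes on transgenes, and these sources cannot be told apart here.

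Some mitochondrially encoded transcripts were higher in EGT > w1118, in deep and in shallow types. In SCs mt:CoIII averaged 27.6 and 8.85, mt:CoII 14.3 and 4.42 and mt:Cyt-b 10.8 and 3.23, with log2 fold changes of 1.54, 1.49 and 1.48. Of the 9 list members compared there, 3 were past 2-fold, beside 1.51% of all genes. In main segment PCs mt:CoIII was at 6.13 and 2.82, and 0 of 9 members were past 2-fold, beside 0.95% of all genes. Over all nuclei mt:ATPase6 had 4591 and 4406 UMIs and mt:ND2 217 and 211. The 12 mitochondrial features in the files summed to 76.7 and 32.1 in SCs, to 112 and 64.9 in RSCs and to 16.4 and 8.80 in main segment PCs. Such transcripts lie outside the nucleus, and their part in other differences was not tested. The 81 cytosolic ribosomal protein genes that could be compared had a median of 0.26 in main segment PCs and -0.06 in lower tubule PCs. Past 2-fold were 0 of 81 in either, beside 0.95% and 0.673% of all genes.

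The roX1 RNA, which coats the X chromosome of males in dosage compensation, was present in both libraries although the labels give female flies. It was at 4.62 and 7.32 in main segment PCs (2997 and 5269 UMIs), at 8.515 and 13.05 in lower tubule PCs, and at 15.9 and 5.08 in SCs (414 and 170 UMIs). The SC values give a log2 fold change of 1.48. Over all nuclei lncRNA:roX1 had 9117 and 11012 UMIs and lncRNA:roX2, its partner, 18 and 13. The presence of male tubules was not tested.

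Several of the named differences of RSCs were also past 2-fold in other types. Alp8, an alkaline phosphatase gene, was at 9.04 in EGT > w1118 (1736 UMIs) and 1.05 in PCts > w1118 (119 UMIs), and CG16762 at 16.3 and 4.89. The microtubule-associated protein gene Jupiter was at 7.61 and 1.59, CG7970 at 18.2 and 6.43, and the UDP-glycosyltransferase gene Ugt35B1 at 5.62 and 1.60. Lower in EGT > w1118 were Cyp6a23, a cytochrome P450 gene, at 0.381 and 3.997, and CG45060, at 0.126 and 3.29. Their log2 fold changes were -1.86 and -1.93. CG13323, with no role to give here, was at 8.11 and 27.7.

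In main segment PCs, genes of ion transport differed in opposite directions. Irk1, an inward rectifier potassium channel gene of the basolateral membrane, was at 27.1 in EGT > w1118 and 11.3 in PCts > w1118 (18438 and 8666 UMIs), a log2 fold change of 1.19. CG7720, a sodium-coupled transporter gene of the SLC5 family, was at 0.592 and 6.25 (490 and 4628 UMIs), a log2 fold change of -2.19, and was seen in 8.09% and 53.8% of nuclei. Atpalpha, the Na+/K+ ATPase subunit gene, was at 94.3 and 154 (-0.70), within 2-fold. Gclm, a subunit gene of the glutathione-making ligase, was at 8.01 and 2.22, and CG34194 at 0.0169 and 2.51, 12 and 1800 UMIs.

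Most lists of function genes had no member past 2-fold in these cells, where 0.95% of all genes were. At that share most lists of this size would hold none, so that the zeros are not a result about any 1 list. None of the 15 vacuolar H+-ATPase genes that could be compared in main segment PCs was past 2-fold (median 0.15), and Vha16-1, a proteolipid subunit gene, was at 41.3 and 36.9. Of 13 ion channels, cotransporters and pumps, Irk1 was past 2-fold and higher and CG7720 past it and lower. The 4 aquaporin genes, 14 zinc transporters, 7 uric acid and purine genes, 4 diuretic hormone receptors, 8 clock genes and 8 nutrient and insulin response genes had 0 past 2-fold. Dh31-R, the receptor gene of a diuretic hormone, was at 23.4 and 17.5, and Eglp4, a glycerol-channel gene, at 4.47 and 2.12. Among the clock genes vri, a transcriptional repressor gene, was at 3.21 and 6.504 (-0.83), and tim at 35.4 and 33.9. Of the 5 JNK and AP-1 genes, with 0 past 2-fold, puc was at 10.1 and 13.7. The 35 P450 genes had a median of 0.01 with 0 past 2-fold, Cyp6a18 being at 16.0 and 29.1 (-0.82), and the 30 glutathione and UDP-glycosyl transferases had 0 past 2-fold. Pvr, the PDGF/VEGF receptor gene, was at 10.8 and 9.09.

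In lower tubule PCs, CG17574 was at 3.53 in EGT > w1118 and 17.0 in PCts > w1118 (1623 and 5277 UMIs), and CG6602, a gene enriched in SCs of both libraries, at 0.355 and 3.43. Ypel, the yippee-like zinc-binding protein gene, was at 5.43 and 0.761, and was past 2-fold and higher in 7 of 11 types. In initial and transitional PCs ced-6, an adaptor gene for the engulfment of dead cells, was at 0.890 (113 UMIs) and 19.6 (2313 UMIs), a log2 fold change of -3.44, and was seen in 38.6% and 96.4% of nuclei. CG14245 was at 4.585 and 18.95. Higher there in EGT > w1118 were Mmp1, a matrix metalloprotease gene, at 14.96 and 5.90, Irk2, a potassium channel gene, at 3.997 and 1.35, and SecCl, at 13.3 and 5.90.

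SCs differed in genes outside their marker list. Lower in EGT > w1118 were spok, a steroid-making P450 gene of the prothoracic gland, at 1.31 and 11.5 (41 and 377 UMIs), and wat, a fatty acyl reductase gene, at 1.99 and 11.8 (67 and 341 UMIs). Higher were CG33521, at 6.57 and 1.66, and Ttc30, at 3.47 and 0.593. In upper ureter PCs the trehalose transporter gene Tret1-1 was at 28.1 and 8.28 and CG43349 at 0.472 and 5.63. There the mean over nuclei and the pooled UMIs differed, and for Tret1-1 the pooled ratio had an interval of 0.76 to 1.08 on the log2 scale, beside a log2 fold change of 1.65.

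Main segment PCs 2, with 36 and 30 nuclei of median 10903 and 10172 UMIs, stood apart from the other deep PC types. The neuregulin-like EGF receptor ligand gene vn was at 17.2 in EGT > w1118 and 1.24 in PCts > w1118 (739 and 41 UMIs), and CG7720 at 0.0871 and 30.2 (8 and 809 UMIs), a log2 fold change of -4.84. Atpalpha was at 22.2 and 141 (1078 and 4207 UMIs), CG7084 at 1.15 and 16.4, and lncRNA:noe at 10.38 and 0.9885. The lectin gene lectin-37Db had 0 and 113 UMIs, at least 60.8-fold lower. Of the 6 main segment PC markers, 4 were past 2-fold and lower there, beside 2.79% of all genes. Uro was the 1 marker that was higher, at 22.3 and 11.7, within 2-fold. Summed over the 6, the level was 28.6 and 31.3. In the larger main segment PC cluster vn was at 2.85 and 1.25 and Atpalpha within 2-fold.

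The types with the fewest UMIs gave wide intervals. In tracheal cells Alp8 was at 8.32 and 0.302 (90 and 4 UMIs) and lcs at 29.9 and 7.34, the lcs UMIs coming from 11.9% and 4.92% of nuclei. In lower ureter PCs CG15406 was at 5.045 and 0.363 (47 and 3 UMIs), with an interval of the pooled log2 ratio of 1.48 to 5.44, and CG11000 at 0.0261 and 4.55 (1 and 32 UMIs). PC-like nuclei had PGRP-SA, a peptidoglycan recognition gene, at 14.2 and 0.654 (42 and 10 UMIs) and heca at 2.38 and 45.2 (4 and 180 UMIs). In visceral muscle TpnC73F, a troponin C gene, was at 16.0 and 1.55 (86 and 3 UMIs) and Cyp6g1 at 3.09 and 19.1 (22 and 18 UMIs). Subtracting the median of all genes left visceral muscle with 221 genes higher and 347 lower in EGT > w1118, in place of 382 and 240, and lower ureter PCs with 161 and 92, in place of 81 and 183. The medians were 0.25 and -0.19, and the split by direction in these types turned with the centring.

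The levels of these genes in main segment PCs of the other libraries were set beside those of the controls. EGT > yki act shares the EGT driver and had 94 main segment PC nuclei, and PCts > Pvr RNAi shares the PCts driver and had 597, while PCts > Pvr act had fewer than 20. Some genes had one level in both EGT libraries and another in both PCts libraries. They were picked among genes past 2-fold between the controls, and the share of such genes that divide by driver was not counted. CG34194 averaged 0.0169 (EGT > w1118) and 0.00635 (EGT > yki act), against 2.51 in PCts > w1118 and 1.72 in PCts > Pvr RNAi. Likewise CG45060 was at 0.0550 and 0.00942 against 2.39 and 2.76, Ctr1B at 0.690 and 0.860 against 3.51 and 3.74, and CG13323 at 1.54 and 2.15 against 8.79 and 7.24. In the other direction, Culd was at 1.74 and 0.975 against 0.0373 and 0.0709. For ced-6 in initial and transitional PCs the levels were 0.890 and 1.92 against 19.6 and 17.8.

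Other genes did not divide by driver. In main segment PCs, CG42807 had 0.231 in EGT > w1118 and 8.44 in PCts > w1118, with 0.540 in EGT > yki act and 0.587 in PCts > Pvr RNAi. Myo81F was at 17.1 in PCts > w1118 and between 5.56 and 6.95 in the other 3 libraries. Ypel was at 3.17 in EGT > w1118 and between 0.416 and 0.668 in the other 3. Srg3 had 0.0101 in EGT > w1118 and 1.29 in PCts > w1118, 0.711 in EGT > yki act and 0 UMIs in PCts > Pvr RNAi. Nazo had 0.116 in EGT > w1118 and 1.26 in PCts > w1118, 1.23 in EGT > yki act and 0.00983 in PCts > Pvr RNAi. Hsp27 was at 20.6 in EGT > w1118 and lowest in PCts > w1118, at 0.904, with 11.3 in EGT > yki act and 8.51 in PCts > Pvr RNAi. These are levels of 1 library each.

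**Figure D5:**
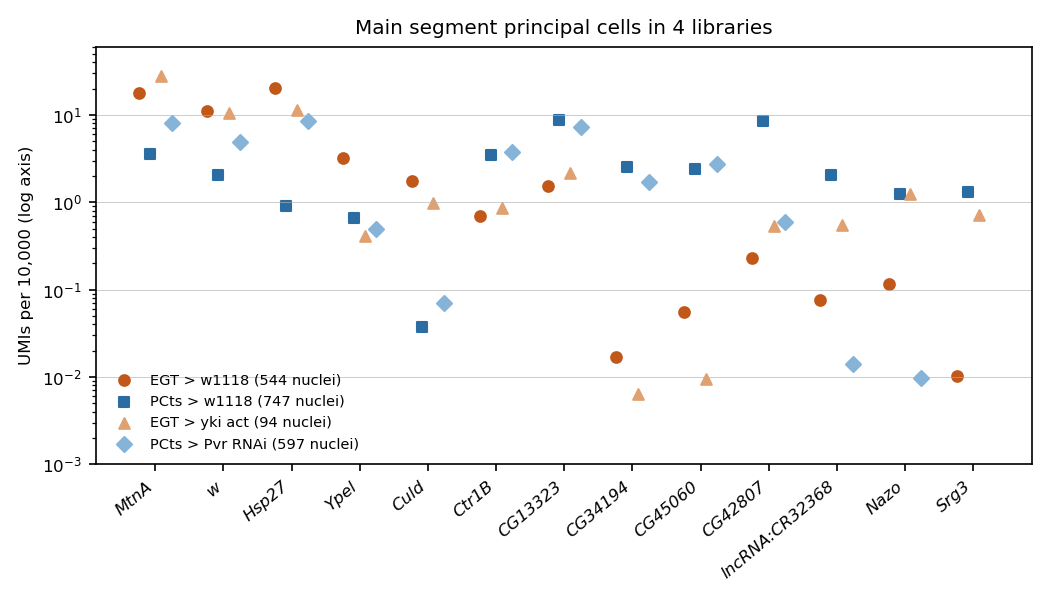
Mean UMIs per 10,000 (log axis) of 13 genes in main segment PCs of the 4 libraries with at least 20 such nuclei (circles, EGT > w1118; squares, PCts > w1118; triangles, EGT > yki act; diamonds, PCts > Pvr RNAi). CG34194 and CG45060 lie low in both EGT libraries and high in both PCts libraries, while CG42807 is highest in PCts > w1118, at 8.44. Srg3 had 0 UMIs in PCts > Pvr RNAi and is not drawn there.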

How the data were processed

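Nuclei were profiled with the 10x Genomics 3' kit. Per the paper's methods and the submitters' processing notes, the authors counted UMIs with Cell Ranger 7.0.0 on BDGP6, normalized with Seurat, aligned libraries with Harmony and clustered. They deposited the natural log of 1 plus UMIs per 10,000 for 16495 genes in 21371 nuclei, and each nucleus's library and cell type. Doublet and nucleus filters are not given in the sources used here, and no doublet caller was run. UMI counts were recovered from the deposited natural log values: these summed to 10000 per nucleus, and 100% of nuclei gave whole counts within 0.001, from 150 to 123301 UMIs. Symbols and positions came from Ensembl release 115, which matched 16447 identifiers.

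Means and pooled ratios were compared as in the text, with exact binomial (Clopper-Pearson) and exact conditional intervals at 95%. A count of 0 was given a floor of 3 UMIs per library and type. Named genes were the 5 highest and 5 lowest per type with at least 20 UMIs over both libraries, up to 10 genes each way past 2-fold in most types, driver features, and members of lists. Among these, Mtk, puc, vri, Dh31-R, Atpalpha and Cyp6a18 in main segment PCs, CG31272, stv, the genes past 2-fold and lower in most types beyond the 10, genes past it in 5 types and the examples of enriched genes were picked after their values were seen. The members and lists were chosen with earlier results of these data known. Alternatives were pseudocounts of 0.1 and none, pooled UMIs, centring, thinning to 500 UMIs, detection in 5% of nuclei or none, setting aside the 25% of nuclei lowest in genes, and setting aside the 5% highest in genes. The functions were tested on simulated data. Python 3.11.15, numpy 2.4.6, scipy 1.17.1 and pandas 2.3.3 were used. No sequences were used here.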

Additional observations from a re-analysis of the deposited data

Results flagged for a closer look

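CG14245 lay past 2-fold in opposite directions in different cell types. Its log2 fold change, EGT > w1118 over PCts > w1118, was 2.51 in PC-like nuclei (101.8 and 17.1 UMIs per 10,000), -1.31 in tracheal cells (9.57 and 25.2) and -1.84 in initial and transitional PCs (4.585 and 18.95). CG4928 did so too, with 2.06 in lower ureter PCs (11.8 and 2.07), 1.19 in PC-like nuclei (23.4 and 9.71) and -1.39 in main segment PCs 2 (33.7 and 89.6). Both were picked among the named genes with at least 100 UMIs over both libraries in each type and an interval of the pooled ratio on the same side, and the difference between types was not tested.

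Signal outside the gene comparison was also seen. The EGFP feature had 18 UMIs in EGT > w1118 and 0 in PCts > w1118, and gal4 had 11 and 1. In the clusters named after Pvr act, which were left out of the comparison, EGT > w1118 had 142 nuclei (4.201%) and PCts > w1118 had 4 (0.133%). Of these, 100 nuclei of EGT > w1118 and 0 of PCts > w1118 were renal stem cells 2 (Pvr-act), and 0 of 3015 nuclei allows a share of up to 0.0995% at a limit of 3 counts, or 0.122% by the exact binomial interval. The median nucleus of that cluster had 390 UMIs in EGT > w1118.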

How the results depend on the processing

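No paired analysis was possible because each genotype has 1 library, and no replicate could be left out. With a pseudocount of 0.1 the genes past 2-fold numbered 105 in RSCs, 199 in main segment PCs, 741 in upper ureter PCs, 185 in lower tubule PCs, 156 in initial and transitional PCs, 695 in PC-like nuclei, 234 in SCs, 1376 in main segment PCs 2, 444 in tracheal cells, 1045 in lower ureter PCs and 1213 in visceral muscle, 19 genes were higher and 30 lower in at least 6 types, and 63.5% of the genes enriched in EGT > w1118 and 68.5% of those in PCts > w1118 kept their top type. With none, the counts in the same order up to lower ureter PCs were 119, 373, 995, 408, 323, 685, 296, 2177, 468 and 1124, with 17 higher and 37 lower in at least 6 types. Pooled UMIs gave 49 genes in upper ureter PCs, 101 in tracheal cells and 88.8% for PCts > w1118. Thinning to 500 UMIs gave 514 in main segment PCs 2, and left out 725 and 528 RSC nuclei. As it left fewer types, the cut across types was 5 in place of 6. At that cut 7 genes were lower, and 10 of the 19 genes were shared. Setting aside the 25% of nuclei lowest in genes also lowered the cut to 5 types, with 10 genes higher. It gave 91.0072% for PCts > w1118, RSC shares of 35.5% and 21.1%, and main segment PC shares of 21.5% and 33.02%. Setting aside the 5% highest gave 11 higher at the same cut of 5 types. It gave 90.7% for PCts > w1118, RSC shares of 49.6% and 38.1%, and 14.8% main segment PCs in EGT > w1118. Detection in 5% of nuclei gave 696 in PC-like nuclei and 79.6% for PCts > w1118, and no detection filter gave 765 there, 244 in tracheal cells and 1034 in visceral muscle. Over tubule types alone, RSCs were 48.9% of EGT > w1118. The log2 ratio of the summed heat shock level in main segment PCs, 1.89, was 1.81 pooled, 1.96 thinned and 1.92 without the 5%. All alternatives for this sum were chosen after seeing the data. Visceral muscle had too few nuclei for a value when either set of nuclei was set aside, and both it and PC-like nuclei when thinned. None of the 110 values of named genes changed sign in any setting that gave it a value, and 109 stayed past 2-fold with pooled UMIs. These were picked as the most extreme values of the same counts, so that this was largely fixed in advance and tests nothing. Of all genes past 2-fold, pooling kept 37 of 102 in upper ureter PCs and 70 of 152 in tracheal cells.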
